A study of Mus musculus with 18 samples.

Results

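Whole jejunum, the middle stretch of the small intestine with its epithelium, immune cells, vessels, nerves and muscle, was compared between C57BL/6 mice given radiation to the whole abdomen at a conventional dose rate and untreated C57BL/6 mice. The comparison used 11 of the 18 libraries in the series, chosen by their treatment labels: 5 labelled conventional radiotherapy (CONV, replicates 2, 3, 5, 6 and 7) and 6 labelled no treatment (control, replicates 1 to 6). The CONV mice received 15 Gy in a single fraction and the tissue was taken 16 h later. All mice were 8 to 12 weeks old, and no transgene or other treatment is given for either group. The labels do not say that each library is a separate mouse, so p-values here measure the spread between libraries. The other 7 libraries came from mice given the same dose at the FLASH rate. They took part in the choice of genes to test, the scaling and the estimate of the spread, but not in the contrast.

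The jejunal epithelium renews itself every few days from stem cells at the base of the crypts. Ionizing radiation breaks DNA in these dividing cells, activates the p53 transcription factor and stops the supply of new cells, while absorptive cells on the villi go on working until they are shed. Lymphocytes are among the most radiosensitive cells of the body, and the gut wall holds large numbers of T cells and IgA-secreting plasma cells. The study as a whole asks how the intestine regenerates after FLASH compared with conventional radiation.

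Library depth was 24342285 to 27765544 estimated reads in the control group and 19936095 to 26990095 in the CONV group. Lactase (Lct), which marks jejunal absorptive cells, was at 408 to 1534 CPM (median 702) in the control libraries and 617, 1002, 1512, 531 and 629.6 CPM in the CONV libraries, and Slc10a2, the bile acid carrier of the ileum, at 1.9 to 14.1 CPM (median 3.49) and 26.9, 13.2, 12.9, 6.05 and 1.31 CPM. Throughout, CONV values are given in the order of replicates 2, 3, 5, 6 and 7, in CPM, that is, estimated counts relative to the library's total after TMM adjustment, and changes are log2 fold changes of CONV over control with their standard error. As a check of the labels, all 12 measured p53 target genes of a short list rose, led by Phlda3 (ENSMUSG00000041801), an inhibitor of AKT signalling, which ranged from 2.98 to 5.69 CPM (median 4.08) in the control libraries and stood at 83.9, 72.2, 66.9, 71.2 and 55.3 CPM in the CONV libraries. Control 6 stood apart from its group. Its score on the first principal component (53.4% of the variance) was 37.4, inside the CONV range of 11.1 to 119.4, and the other control libraries lay between -94.9 and -30.6. In control 6 and CONV 6, log2 CPM relative to the mean of all 18 libraries also fell with transcript length. The slopes were -0.225 and -0.239 per log2 unit of length, against -0.018 to 0.156 in the other control libraries and -0.166 to 0.028 in the other CONV libraries.

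Of 16257 genes tested, 22.2% passed an adjusted p of 0.05 (edgeR quasi-likelihood test): 1662 (10.2%) were higher and 1953 (12.0%) were lower in CONV. Without control 6 these counts were 3146 (19.5%) and 3347 (20.7%). Without CONV 6 they were 828 (5.01%) and 1041 (6.30%). Without CONV 2 they were 1066 and 1105, without control 2 they were 1023 and 1254, and without control 5 they were 1005 and 1354. With both replicates numbered 6 left out, 2120 genes (12.9%) were higher and 2339 (14.2%) lower, and 3303 of the original calls were still made in the same direction. Because of this, a gene is said below to have held only if it passed, in the same direction, with each of the 11 libraries left out in turn, with both replicates 6 left out and in a fit that corrects for GC content and transcript length, and if no single library moved its log2 fold change by more than 1.5 times. Of all tested genes, 782 (4.81%) held as higher and 894 (5.50%) as lower. Libraries of the groups did not overlap for 5.46% of genes in the higher and 4.95% in the lower direction. Counts of a gene list below are read against these shares, and its median against the median log2 fold change of all tested genes, -0.045.

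**Figure D1:**
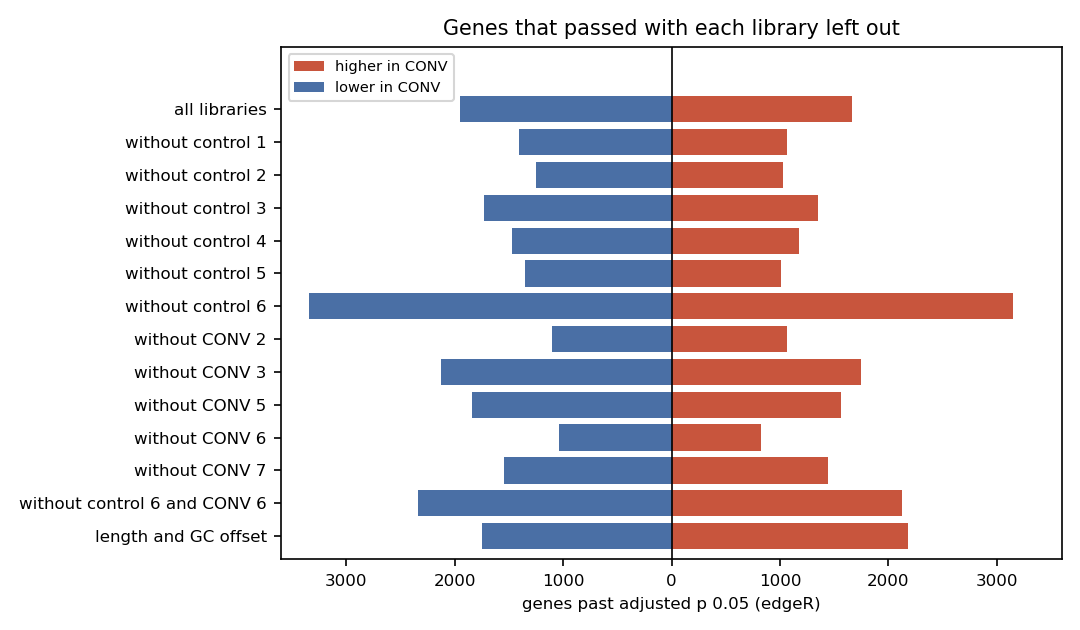
Genes past an adjusted p of 0.05 (x axis, number of genes, with red to the right higher in CONV and blue to the left lower in CONV). Bars show the fit of all 18 libraries, fits with each of the 11 control and CONV libraries left out, with both replicates 6 left out, and with an offset for length and GC content. The FLASH libraries were part of every fit. The count rises to 3146 and 3347 without control 6 and drops to 828 and 1041 without CONV 6.

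T lymphocyte genes fell broadly. Of 20 measured markers, 18 were lower in CONV and 17 held, with a median log2 fold change of -1.64. Cd6 (ENSMUSG00000024670), a co-receptor of the T cell surface, ranged from 3.76 to 13.1 CPM (median 7.63) in the control libraries and stood at 0.995, 1.26, 0.745, 0.858 and 1.28 CPM in the CONV libraries. Every CONV library was below every control library, and the log2 fold change was -2.95 ± 0.33 (adjusted p 1.44e-05). Control 6 was the lowest control library. The receptors that give T cells their second signal also fell: Cd28 changed by -2.34 ± 0.36 and Icos by -3.01 ± 0.49, and Cd5, a brake on receptor signalling, changed by -3.40 ± 0.53. Trac, the constant part of the T cell receptor alpha chain, had a smaller change of -1.97 ± 0.32; its CONV libraries stood at 3.19, 2.44, 1.45, 2.62 and 5.39 CPM, with replicate 7 the highest. In whole tissue, fewer cells of a type and less RNA per cell cannot be told apart, here and for every cell type below.

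Among the 20 genes with the smallest p of those that held as lower without overlap between groups were several of leukocyte signalling. Lax1, an adaptor that limits lymphocyte signalling, ranged from 7.08 to 10.6 CPM (median 8.59) in the control libraries and stood at 1.83, 2.02, 1.23, 2.12 and 2.77 CPM in the CONV libraries, a change of -2.12 ± 0.23. Grap2, which links the receptor complex to its downstream kinases, changed by -2.05 ± 0.24, Sh2d2a, a T cell adaptor, by -1.92 ± 0.23, Spn, the sialic-acid-rich surface protein CD43, by -2.58 ± 0.31, and Dock11, a guanine exchange factor of leukocytes, by -2.04 ± 0.20. Lack of overlap was a condition for choosing these 5 genes and is not a result.

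Among 31 interleukin receptor genes 13 were lower, 9 of which held (median -0.87). Il7r (ENSMUSG00000003882), the receptor for the survival cytokine IL-7 on T cells and innate lymphoid cells, ranged from 5.4 to 11.1 CPM (median 8.05) in the control libraries and stood at 1.1, 0.907, 0.745, 0.722 and 1.06 CPM in the CONV libraries. The CONV libraries lay close together and far below control 6, the lowest control, and the change was -3.13 ± 0.28 (adjusted p 9.8e-07). All 3 chains of the IL-2 receptor were lower: Il2ra, carried by regulatory and activated T cells, changed by -2.38 ± 0.31, Il2rb by -1.88 ± 0.29 and the shared gamma chain Il2rg by -1.75 ± 0.32. Il12rb2, the signalling chain of the IL-12 receptor, changed by -2.58 ± 0.47, and CONV 7 at 0.851 CPM was above control 6 at 0.73 CPM.

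Markers of innate lymphoid cells and mucosal mast cells mostly fell: of 11 measured, 8 were lower and 2 higher, 6 and 2 of which held. The summed level of the list went the other way, with 73.1 to 88.7 CPM in control and 103 to 152 CPM in CONV libraries. Mcpt1, a protease of mucosal mast cells, ranged from 1.84 to 8.04 CPM (median 4.2) in the control libraries and stood at 0.105, 0, 0, 0 and 0 CPM in the CONV libraries. That was 795 estimated counts over the control group against 2 over the CONV group, a ratio of 321 whose 95% counting interval ran from 88.7 to 2658. The related gene Mcpt2 had 313 counts in the control group and 0 in the CONV group, which makes it at least 84.3-fold lower when the CONV group is set to 3 counts. Gata3, the factor that type 2 innate lymphoid cells and helper T cells need, ranged from 0.912 to 2.74 CPM (median 1.87) in the control libraries and stood at 0.209, 0.279, 0.372, 0.226 and 0.248 CPM in the CONV libraries, and changed by -2.80 ± 0.33. Kit, the stem cell factor receptor of mast cells and pacemaker cells, changed by -1.52 ± 0.40 and Klrg1, a lectin receptor of type 2 innate lymphoid cells, by -3.12 ± 0.75. Areg, the growth factor amphiregulin, which is made by epithelium as well as by these cells, went the other way and changed by 1.82 ± 0.50.

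Intraepithelial and cytotoxic lymphocyte markers fell in part. Of 17 measured, 9 were lower and 4 held: the pore-forming protein Prf1 (-2.12 ± 0.42), the killer-cell transcription factor Tbx21 (-2.16 ± 0.45), the integrin Itgae that ties lymphocytes to epithelium (-1.5 ± 0.33) and the activating receptor Klrk1 (-1.86 ± 0.42). The number lower was 4 without CONV 6, 5 without CONV 2, CONV 3, CONV 5, control 3 or control 5.

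Plasma cell and antibody genes fell. Of 18 plasma cell markers 11 were lower and 10 held (median -1.88). Igha (ENSMUSG00000095079), the constant region of IgA, ranged from 3889 to 8214 CPM (median 4814) in the control libraries and stood at 344, 569, 664, 557 and 1283 CPM in the CONV libraries. All CONV libraries were below all controls, with replicate 7 the highest of them, and the change was -2.94 ± 0.34. Jchain, which joins IgA into dimers, changed by -2.66 ± 0.44, Igkc by -2.60 ± 0.38, Irf4, a factor plasma cells require, by -2.41 ± 0.32, and Tnfrsf13b, a receptor for the survival factors BAFF and APRIL, by -1.82 ± 0.25. The fall extended over the repertoire. Of 81 immunoglobulin heavy variable segments 57 were lower and 42 held, and of 79 kappa variable segments 43 were lower and 34 held, with medians of -3.10 and -2.46. Variable segments resemble each other closely, so reads can be split between them and single segments are uncertain. Ighv1-80, for one, ranged from 13.1 to 97.8 CPM (median 37.2) in the control libraries and stood at 0.628, 1.57, 3.83, 1.44 and 3.69 CPM in the CONV libraries. B lymphocyte markers were lower too (9 of 14, 5 held), including the signalling chain Cd79a (-2.79 ± 0.54) and the tetraspanin Cd37 (-2.36 ± 0.46). Their number was 5 without CONV 2, CONV 6, CONV 7 or control 2, and their summed level was uneven among controls, at 56.2 to 551 CPM against 10.1 to 98.7 CPM in CONV.

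Pigr, the epithelial receptor that carries IgA into the lumen, fell too. It ranged from 1608 to 4684 CPM (median 2948) in the control libraries and stood at 645, 836, 810.1, 668 and 1452 CPM in the CONV libraries. All CONV libraries were below control 6, the lowest control with CONV 7 close under it, and the change was -1.79 ± 0.26 (adjusted p 0.000153).

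Antigen presentation through MHC class II was lower in most of its measured genes. The genes of this path share promoter elements bound by RFX and NF-Y ahead of the start site, and their master activator CIITA acts through those factors. The windows of 250 bases before to 50 bases after the annotated start (RefSeq, GRCm38.p6) are shown for H2-Eb1 and H2-Aa, which both held. H2-DMa, which also held and also lies on chromosome 17, is not printed, and its first window had no CCAAT box. Capitals mark the CCAAT box of NF-Y, CCAAT or ATTGG on the printed strand.
H2-Eb1, chr17:34305617-34305916, plus strand: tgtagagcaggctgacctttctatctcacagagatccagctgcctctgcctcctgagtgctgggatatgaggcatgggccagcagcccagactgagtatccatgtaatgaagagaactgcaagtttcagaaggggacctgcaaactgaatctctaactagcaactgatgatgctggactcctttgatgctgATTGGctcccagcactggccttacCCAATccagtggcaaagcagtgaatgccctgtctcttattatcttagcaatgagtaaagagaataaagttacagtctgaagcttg
H2-Aa, chr17:34287774-34288073, minus strand: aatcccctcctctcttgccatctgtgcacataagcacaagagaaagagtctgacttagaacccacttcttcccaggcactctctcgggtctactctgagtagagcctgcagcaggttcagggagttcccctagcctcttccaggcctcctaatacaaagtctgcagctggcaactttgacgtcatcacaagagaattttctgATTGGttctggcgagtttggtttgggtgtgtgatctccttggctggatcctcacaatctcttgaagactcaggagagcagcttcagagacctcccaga
Of the tested class II list, 11 of 15 genes had a window and 9 of those held a CCAAT box, as did all 7 held genes with a window; over all tested genes with a window the share was 42.3%, and over all 32851 windows 37.4%. A gene counted if any of its windows had a match; H2-DMa, with 2 annotated start sites, had none in the first window.

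Of 15 class II genes 10 were lower, all of which held, and 1 rose without holding (median -1.76). H2-Eb1 (ENSMUSG00000060586), a beta chain that binds peptide, ranged from 341 to 822 CPM (median 584) in the control libraries and stood at 207, 104, 132, 112 and 275 CPM in the CONV libraries. Control 6 was the second highest control, after control 3, and groups did not overlap; the change was -1.87 ± 0.29. H2-Aa, the partner alpha chain, changed by -1.76 ± 0.37 with CONV 2 at 524 CPM inside the control range, and H2-DMa, which loads peptides, by -1.82 ± 0.34. Ciita stood at 10.2, 8.44, 13.4, 5.1 and 15.0 CPM in the CONV libraries, against 27.2 to 65.3 CPM (median 50.1) in the control libraries. The lowest CONV library was replicate 6 and the change was -2.16 ± 0.37. The list's summed level was 3413 to 8430 CPM in control and 1465 to 3424 CPM in CONV libraries. Markers of the cells that carry class II were lower at the same time: 10 of 18 dendritic cell markers, 9 of 14 B cell markers and 7 of 20 macrophage markers were lower. Their part in the class II result was not tested.

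Genes that interferon-gamma induces in many cell types were also lower. Of 28 such GTPase and class I presentation genes 20 fell, 10 of which held (median -1.06); the count was 11 without CONV 6, 12 without CONV 2. Among guanylate-binding proteins, which attack vacuoles of intracellular microbes, 9 of 10 fell and 6 held. Gbp2 ranged from 23.3 to 41.0 CPM (median 33.0) in the control libraries and stood at 7.64, 13, 10.9, 7.27 and 15.2 CPM in the CONV libraries, a change of -1.61 ± 0.23 with no overlap. Gbp6 changed by -2.30 ± 0.40, Nlrc5, the class I counterpart of CIITA, by -2.11 ± 0.34, and Cxcl9, the chemokine that attracts T cells carrying CXCR3, by -2.56 ± 0.53. Psmb8, an immunoproteasome subunit, changed by -1.18 ± 0.36 and did not hold, with CONV 7 at 150.1 CPM. Gbp genes are close copies of each other and reads may be shared among them. Markers of T and cytotoxic lymphocytes, the main makers of interferon-gamma, were lower by the counts given above; their part in this result was not tested. Of 22 interferon-stimulated genes of the antiviral kind 2 rose and 3 fell (median -0.21), close to the shares of all genes. The 2 that rose, Mx1 (1.40 ± 0.26) and Mx2 (1.42 ± 0.32), held; the number that fell was 0 without CONV 6, 1 without CONV 2, 5 without CONV 7.

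Markers of dendritic cells fell (10 of 18, 8 held) and those of macrophages in part: of 20 measured, 7 fell, 5 of which held, and 1 rose. Xcr1, the chemokine receptor of cross-presenting dendritic cells, ranged from 1.24 to 3.42 CPM (median 2.58) in the control libraries and stood at 0.262, 0.244, 0.223, 0.226 and 0.426 CPM in the CONV libraries, a change of -3.17 ± 0.41. Flt3, the growth factor receptor of the lineage, changed by -2.64 ± 0.44, Wdfy4, needed for cross-presentation, by -2.89 ± 0.56, and Siglech of plasmacytoid cells by -3.57 ± 0.60. Ccl22, a chemokine that dendritic cells make to draw regulatory T cells, ranged from 6.03 to 12.8 CPM (median 8.21) in the control libraries and stood at 0.576, 1.67, 0.968, 0.451 and 1.42 CPM in the CONV libraries and changed by -3.05 ± 0.39. On the macrophage list, the integrin Itgam (-1.31 ± 0.25), the growth factor receptor Csf1r (-1.35 ± 0.36), the monocyte antigen Ly6c2 (-2.0 ± 0.41) and Adgre1, which encodes F4/80 (-1.0 ± 0.24), were lower and held. Mertk, a receptor with which macrophages take up apoptotic cells, was the gene that rose. It ranged from 37.0 to 62.6 CPM (median 44.4) in the control libraries and stood at 77.4, 82.3, 107, 107 and 96.2 CPM in the CONV libraries, a change of 0.96 ± 0.20 with no overlap.

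**Figure D2:**
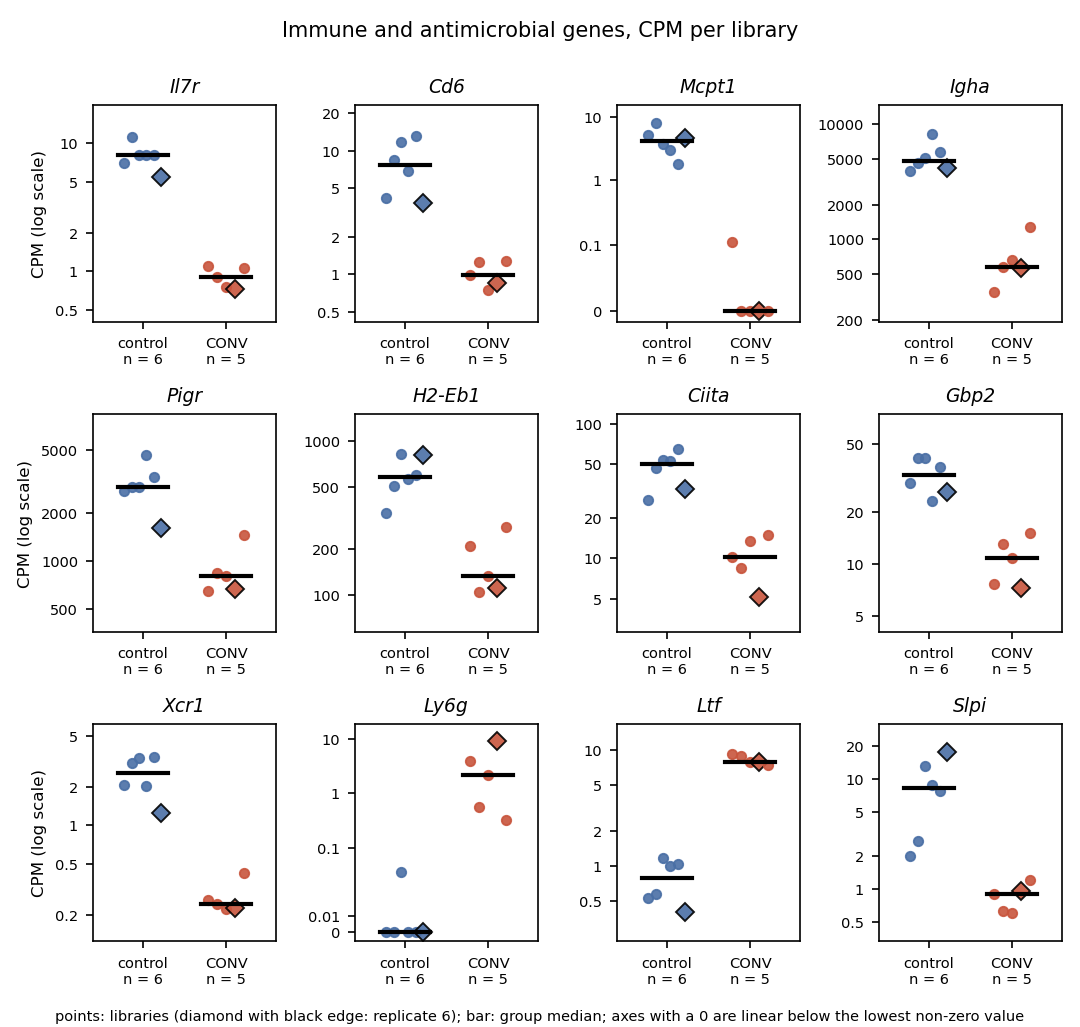
CPM (y axis, log scale) of 12 immune and antimicrobial genes in 6 control (blue) and 5 CONV (red) libraries, with the group median as a bar and replicate 6 of each group as a diamond. Groups do not overlap in any panel; Ly6g and Ltf are higher in CONV and the other 10 genes are lower.

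Of 13 neutrophil and eosinophil markers 1 held as higher and 1 as lower. Ly6g, the defining mouse neutrophil antigen, was 0 to 0.0365 CPM (median 0) in control libraries, with 1 estimated count in the whole group, and 3.87, 0.558, 2.12, 9.21 and 0.319 CPM in CONV libraries, with 360. Replicates 6 and 2 were the highest and replicates 7 and 3 the lowest. S100a8, a subunit of the neutrophil protein calprotectin, had 3 counts in control and 68 in CONV (ratio 28.0, counting interval 9.20 to 139) and did not hold. The order was different, with replicate 2 at 2.2 CPM and the others at or below 0.384 CPM. The eosinophil granule gene Prg2 changed by -2.48 ± 0.63. The summed level of all 13 markers was 19.2 to 54.7 CPM in control and 21.7 to 31.9 CPM in CONV libraries.

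Genes of epithelial defence split into a set that rose and a set that fell. Of 17 measured, 8 rose and 6 fell, 5 and 5 of which held; the number that rose was 5 without CONV 2. Ltf (ENSMUSG00000032496), the iron-binding protein lactoferrin, stood at 9.22, 8.75, 7.89, 7.9 and 7.31 CPM in the CONV libraries, against 0.401 to 1.17 CPM (median 0.786) in the control libraries. CONV libraries lay close together and the change was 3.38 ± 0.30 (adjusted p 6.37e-07). Lcn2, which binds bacterial siderophores, stood at 37.6, 22.5, 26.4, 142 and 13.2 CPM in the CONV libraries, against 0.876 to 4.19 CPM (median 1.84) in the control libraries, with replicate 6 far above the rest; its change was 4.49 ± 0.77 and lay between 3.5 and 4.8 with any 1 library left out. The acute-phase gene Saa3 changed by 2.73 ± 0.57 and the bactericidal lectin Reg3b by 2.13 ± 0.48. Neutrophils also make lactoferrin and Lcn2. The CONV libraries had the same order for Lcn2 as for Ly6g, from replicate 6 at the top through 2, 5 and 3 to replicate 7. The metabolic genes Acot1, Fbp1, G6pc and Msmo1, given below, had this order too, so it was not particular to Lcn2 and Ly6g. Ltf had another order. The part of neutrophils in these results was not tested. Slpi, a protease inhibitor of mucosal secretions, changed by -3.33 ± 0.58. Cd177, known as a neutrophil antigen but placed on the epithelial list because it is expressed there too, ranged from 3.72 to 10.3 CPM (median 6.26) in the control libraries and stood at 1.47, 1.64, 1.12, 1.4 and 1.1 CPM in the CONV libraries and changed by -2.30 ± 0.31, opposite in sign to Ly6g. Nox1 (-3.19 ± 0.76) and Duox2 (-2.70 ± 0.70), enzymes that release superoxide and hydrogen peroxide at the epithelial surface, held as lower; these 2 genes were picked after their values were seen.

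Of 25 complement and coagulation genes 4 were lower, not far from the 12.0% of all genes that were lower. All 4 held, against 5.50% of all genes that held as lower. Among them were C4b (-1.80 ± 0.44), C1s1 (-1.52 ± 0.32) and C1ra (-1.31 ± 0.30). The count that fell was 7 without control 6. Groups overlapped for C4b, C1s1 and C1ra, with control 6 the lowest control in each.

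Genes of fat metabolism rose. PPAR-alpha is the nuclear receptor that switches on fatty acid oxidation when fatty acids reach the cell, and of 21 genes of this response 14 rose and 10 held (median 0.83). Acot1 (ENSMUSG00000072949), a cytosolic acyl-CoA thioesterase, ranged from 1.22 to 4.36 CPM (median 1.76) in the control libraries and stood at 56.1, 16.0, 36.7, 59.5 and 9.9 CPM in the CONV libraries. Replicates 2 and 6 were the highest and replicate 7 the lowest CONV library, still above every control, and the change was 3.90 ± 0.48 (adjusted p 3.52e-05). Pdk4, which shuts glucose carbon out of the mitochondria, changed by 2.39 ± 0.42, the omega-hydroxylase Cyp4a10 by 4.94 ± 1.09 and the fatty acid carrier and activating enzyme Slc27a2 by 1.62 ± 0.29. Within the mitochondrion, 9 of 18 oxidation genes rose and 5 held, led by Acadl (2.06 ± 0.25) and Acaa2 (2.14 ± 0.31); the count was 5 without CONV 2 or CONV 6. Cpt1a, the gate of fatty acid entry, did not pass the test at -0.75 ± 0.29 (adjusted p 0.0626), but was lower without control 6 (edgeR adjusted p 0.00858) or CONV 5 (0.0439).

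Lipid absorption and chylomicron assembly, the packing of dietary fat for export into lymph, rose in 12 of 18 genes, 9 of which held (median 0.92). Fabp2, the intestinal fatty acid binding protein, ranged from 2479 to 8666 CPM (median 3594) in the control libraries and stood at 22082, 10326, 13742, 19171 and 9052 CPM in the CONV libraries. Control 6 was the highest control, and every CONV library lay above it; the change was 1.74 ± 0.30. Fabp1 changed by 2.72 ± 0.56, Apoa4, an apolipoprotein of chylomicrons, by 2.21 ± 0.39, the lipid-loading protein Mttp by 0.90 ± 0.18, the triglyceride synthase Dgat2 by 1.26 ± 0.25 and their regulator Creb3l3 by 1.09 ± 0.26. Apob, the structural protein of the particle, did not pass at -0.46 ± 0.37. Absorptive cell genes of the mid villus were higher at the same time, with a summed level of 17690 to 34150 CPM in control and 38500 to 67460 CPM in CONV libraries, and crypt genes were lower as given below. The share of these cells in the lipid result was not tested.

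Of 16 gluconeogenesis and glutamine genes 7 rose and 1 fell, 6 and 1 of which held. Fbp1 (ENSMUSG00000069805), a committed enzyme of glucose synthesis, ranged from 8.00 to 39.4 CPM (median 15.9) in the control libraries and stood at 306, 199.9, 230.3, 432 and 109.6 CPM in the CONV libraries. The lowest CONV library, replicate 7, was well above the highest control, and the change was 3.72 ± 0.43. G6pc, which frees glucose from its phosphate, ranged from 16.3 to 33.3 CPM (median 19.3) in the control libraries and stood at 235, 103, 125, 265 and 46.1 CPM in the CONV libraries, a change of 2.80 ± 0.37, and its partner transporter Slc37a4 changed by 2.42 ± 0.29. Pck2, the mitochondrial PEP carboxykinase, changed by -1.12 ± 0.16, and Pck1, the cytosolic form, changed by 1.21 ± 0.35 without holding, with CONV 7 at 35.2 CPM inside the control range. Of 18 glycolysis genes 6 held as higher and 1 as lower. Khk, the kinase that starts fructose use, was among those that rose (1.68 ± 0.35), and the fructose carrier Slc2a5, on the villus list, changed by 3.10 ± 0.48. Hexokinase 2, which commits glucose to glycolysis in dividing cells, ranged from 4.42 to 29.2 CPM (median 25.9) in the control libraries and stood at 3.04, 7.85, 9.16, 3.02 and 7.09 CPM in the CONV libraries. Control 6 fell inside the CONV range and the other 5 controls stayed above it; the change was -1.87 ± 0.47.

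Of 264 solute carrier genes 58 rose and 28 fell, 31 and 17 of which held; the number that rose was 34 without CONV 6, 38 without control 5 and the number that fell 18 without CONV 6, 50 without control 6. Slc16a6, a carrier that exports ketone bodies, had the smallest p of them. It ranged from 21.6 to 35.0 CPM (median 24.7) in the control libraries and stood at 137, 115, 140.1, 191 and 122 CPM in the CONV libraries, with no overlap and a change of 2.45 ± 0.18 (adjusted p 4.4e-08). The thiamine carrier Slc19a2 changed by 1.62 ± 0.17. Carriers hardly detected in control tissue rose with it: Slc6a18, an amino acid carrier known from the kidney, stood at 8.95, 3.17, 6.63, 4.92 and 2.52 CPM in the CONV libraries, against 0.0893 to 0.365 CPM (median 0.203) in the control libraries, Slc6a3, the dopamine transporter, stood at 6.81, 0.942, 6.03, 13.1 and 6.46 CPM in the CONV libraries, against 0 to 0.474 CPM (median 0.0314) in the control libraries, and Slc4a11, of the bicarbonate carrier family, changed by 3.82 ± 0.50.

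Sterol synthesis genes rose in 7 of 19, 4 of which held (median 0.49); the count was 4 without CONV 2 or CONV 6. Msmo1, a demethylating oxidase of the pathway, ranged from 50.6 to 73.5 CPM (median 58.4) in the control libraries and stood at 236, 82.6, 151, 259 and 62.3 CPM in the CONV libraries, a change of 1.41 ± 0.30. All CONV libraries but replicate 7 were above all controls. Insig1, which holds back the sterol sensor and is itself a target of it, changed by 1.58 ± 0.38 with the same order of libraries. Of 19 genes of cholesterol export and bile acid handling 2 held as higher and 1 as lower. Nr0b2, the repressor SHP through which bile acids curb their own synthesis, stood at 5.66, 7.01, 9.08, 17.1 and 2.8 CPM in the CONV libraries, against 0.0298 to 0.401 CPM (median 0.235) in the control libraries; groups did not overlap and the change was 5.11 ± 0.64. Cyp27a1, a sterol hydroxylase, changed by 1.84 ± 0.24. Hpgd, which breaks down prostaglandins, changed by 1.33 ± 0.30.

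Pycr1, the last enzyme of proline synthesis in mitochondria, ranged from 5.29 to 9.49 CPM (median 7.14) in the control libraries and stood at 0.838, 1.33, 1.6, 1.49 and 1.84 CPM in the CONV libraries, a change of -2.38 ± 0.27 with no overlap. Cps1, which feeds citrulline synthesis, ranged from 339 to 680.1 CPM (median 593) in the control libraries and stood at 111, 215, 195, 116 and 308 CPM in the CONV libraries and changed by -1.57 ± 0.25. Of the 18 serine, folate and methionine genes 6 were lower, but only Mthfd2, of mitochondrial one-carbon metabolism, held (-0.76 ± 0.17). Aldh1l2, its neighbour in the pathway, changed by -2.87 ± 0.53, the purine synthesis enzyme Atic by -1.17 ± 0.22, and Fads1, the delta-5 desaturase of polyunsaturated fatty acids, by -1.40 ± 0.16. Amino acid carriers divided. The carriers that take up amino acids from blood for growth, Slc7a1 (-1.74 ± 0.36) and Slc7a5 (-1.51 ± 0.32), and the glutamate carrier Slc1a1 (-1.72 ± 0.43) were lower; the brush border carrier Slc6a19 (1.28 ± 0.22) and the basolateral exporter Slc7a7 (0.81 ± 0.15) were higher. Slc3a2, the heavy chain that both Slc7a5 and Slc7a7 need, changed by 0.63 ± 0.15. In all 6 of 18 such genes rose and 4 fell, 3 and 4 of which held; the number that rose was 3 without control 5. Among 20 tRNA synthetases Vars (-1.19 ± 0.28) and Lars (-0.99 ± 0.25) held as lower.

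Ion and fluid genes moved in both directions, 5 up and 5 down of 18, 4 and 4 of which held, and the number that fell was 8 without control 6. Guanylin and uroguanylin (Guca2a and Guca2b), peptides that set salt and water secretion through cyclic GMP, rose. Guca2b ranged from 231 to 820.0 CPM (median 401) in the control libraries and stood at 2081, 1084, 1355, 2794 and 1306 CPM in the CONV libraries. The order of CONV libraries put replicates 6 and 2 on top; the changes were 1.99 ± 0.32 for Guca2b and 1.48 ± 0.23 for Guca2a. Among the genes that were lower were Slc12a2, which loads chloride into crypt cells (-1.27 ± 0.25), and Kcnn4 (-1.79 ± 0.28) and Kcne3 (-1.26 ± 0.24), a potassium channel and a channel subunit that keep up the driving force. Kcnn4 ranged from 19.6 to 32.7 CPM (median 29.7) in the control libraries and stood at 5.29, 10.6, 6.81, 4.38 and 14.3 CPM in the CONV libraries. No library overlapped. Cftr, the chloride channel itself, did not pass at -0.33 ± 0.16, but was lower without control 6 (adjusted p 0.036). The sodium exchanger Slc9a2 changed by -1.03 ± 0.17. Among 56 potassium channel genes 13 fell and 8 held. Cldn8, a claudin that seals junctions, ranged from 0.987 to 3.17 CPM (median 1.89) in the control libraries and stood at 0, 0.174, 0.149, 0 and 0.0709 CPM in the CONV libraries and changed by -4.54 ± 0.85, with no overlap. Muc4, a membrane mucin, changed by -2.25 ± 0.46, with control 6 at 5.55 CPM inside the CONV range.

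**Figure D3:**
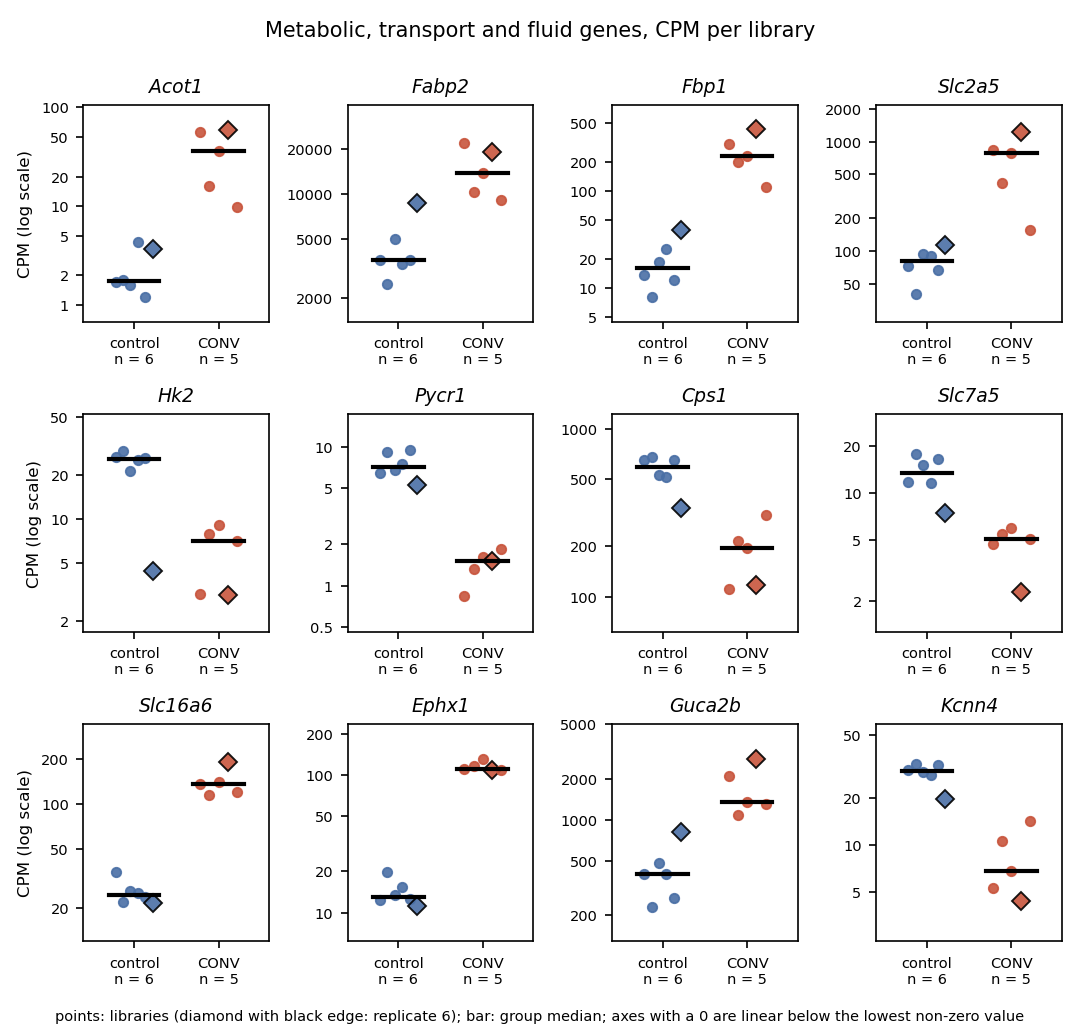
CPM (y axis, log scale) of 12 metabolic, transport and fluid genes in 6 control (blue) and 5 CONV (red) libraries, with the group median as a bar and replicate 6 as a diamond. Groups overlap for Hk2 only, where control 6 at 4.42 CPM lies among the CONV libraries.

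Detoxification genes rose. Glutathione synthesis and other targets of NRF2, the sensor of oxidants and electrophiles, were higher in 13 of 22 genes and 9 held (median 0.83). Ephx1 (ENSMUSG00000038776), microsomal epoxide hydrolase, was among the 20 genes with the smallest p that held as higher without overlap between groups. It ranged from 11.1 to 19.8 CPM (median 13) in the control libraries and stood at 109.9, 116, 130.3, 109 and 109 CPM in the CONV libraries. Its CONV libraries lay close together, and the change was 3.03 ± 0.22 (adjusted p 3.27e-08). Gsta3, a glutathione transferase, stood at 23.2, 17.5, 21.3, 28.2 and 18.2 CPM in the CONV libraries, against 1.54 to 4.96 CPM (median 1.76) in the control libraries, a change of 3.15 ± 0.30. Gclc, the rate-limiting enzyme of glutathione synthesis, changed by 1.49 ± 0.32, Cbr3, a carbonyl reductase, by 3.30 ± 0.50, haem oxygenase Hmox1 by 1.99 ± 0.31 and Txnrd1, thioredoxin reductase, by 0.93 ± 0.14. Of 21 glutathione transferase genes 6 rose; the count was 14 without control 6.

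Cytochrome P450 genes of drug and steroid metabolism rose in families 2 (8 of 19) and 3 (4 of 6). In family 2, 1 gene fell and held. Cyp3a44 stood at 91.2, 68.8, 82.1, 135 and 75.5 CPM in the CONV libraries, against 0.662 to 3.87 CPM (median 2.01) in the control libraries, a change of 5.32 ± 0.38. Cyp2b10, the standard target of the receptor CAR, stood at 543, 231, 379, 669 and 273 CPM in the CONV libraries, against 13 to 94.1 CPM (median 56.6) in the control libraries, a change of 2.99 ± 0.41, and Cyp2c29 changed by 5.44 ± 0.79 from a control median of 0.0939 CPM. Por, which hands electrons to all these enzymes, changed by 0.94 ± 0.22, and Nr1i2, the receptor PXR that induces family 3, by 0.97 ± 0.23. Carboxylesterases rose in 6 of 14 genes, with Ces1g at 2.40 ± 0.50 and Ces1c the other way at -1.62 ± 0.40. Abcb1b, the drug efflux pump, changed by 2.09 ± 0.25. Members of the Cyp2, Cyp3a, Gsta and Ces families are near copies of each other in tandem, so the split of reads within a family is uncertain. Retinoid genes rose in 5 of 17 (4 held; 8 without control 6), with the cellular binding protein Rbp2 (2.03 ± 0.39) and the regulator Isx (1.19 ± 0.19), which limits vitamin A uptake.

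Clock genes that passed were mostly higher. Of 19 clock genes 10 rose, 8 of which held, and 2 fell without holding (median 0.83). The number that fell was 0 without CONV 2, CONV 6 or control 5. Tef (ENSMUSG00000022389), a clock-controlled activator, ranged from 13 to 32.7 CPM (median 18.8) in the control libraries and stood at 76.5, 55.3, 87.4, 95.4 and 43.0 CPM in the CONV libraries, a change of 1.83 ± 0.25. The repressors Per3 (1.93 ± 0.33), Per2 (1.51 ± 0.31) and Cry1 (0.96 ± 0.18) rose, while Arntl (BMAL1), the activator they inhibit, did not pass at -0.83 ± 0.38, but was lower without CONV 7 (adjusted p 0.0457). The labels give no time of day at which tissue was taken, so hour of collection and treatment cannot be told apart for these genes. Genes that glucocorticoids induce held as higher in 5 of 17 and as lower in 1. Tsc22d3, the anti-inflammatory protein GILZ, ranged from 36.9 to 78.3 CPM (median 60.4) in the control libraries and stood at 167, 87.7, 96.2, 167 and 83.1 CPM in the CONV libraries, a change of 1.03 ± 0.25, and Fkbp5, a co-chaperone of the receptor, changed by 1.5 ± 0.38. Errfi1, an EGF receptor inhibitor that glucocorticoids raise, changed by 1.35 ± 0.33. The enzymes that set local hormone levels moved apart: Hsd11b1, which regenerates active hormone, by 0.97 ± 0.24, and Hsd11b2, which inactivates it, by -1.67 ± 0.35.

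Protein folding genes rose to a limited extent. Of 21 unfolded protein response genes 6 rose and 5 held, including the co-chaperones Dnajb9 (1.05 ± 0.24) and Sdf2l1 (1.21 ± 0.30), and of 20 heat shock genes 4 rose, with the constitutive chaperone Hspa8 at 1.25 ± 0.21. Of 22 immediate early genes, which respond within minutes, 3 rose, near the 10.2% of all genes that rose. All 3 held, against 4.81% of all genes that held as higher. Fos had a change of -0.27 ± 0.25 and Egr1 of -0.28 ± 0.36 and did not pass. Ier5 (0.94 ± 0.15) and Fosl1 (2.65 ± 0.77) rose and held, Fosl1 at low levels with 0.681, 0.872, 0.41, 0.361 and 0.461 CPM in CONV. Of 19 integrated stress response genes 2 held as higher, Gdf15 and Sesn2, which restrains mTOR signalling (2.01 ± 0.18). Gdf15, a hormone of cell stress that curbs appetite, stood at 19.1, 16.9, 12.9, 18.6 and 13.6 CPM in the CONV libraries, against 0.268 to 1.28 CPM (median 0.43) in the control libraries, a change of 4.72 ± 0.36.

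Proliferation genes fell in part. Cell cycle genes of G2 and mitosis share the CHR element and CCAAT boxes close to the start site, through which p53 and p21 lower them by way of the DREAM complex. Windows of 250 bases before to 50 bases after the start (RefSeq, GRCm38.p6) are shown for the 3 mitosis genes that held with the smallest p; capitals mark CHR (TTTGAA or TTCAAA) and the CCAAT box (CCAAT or ATTGG).
Mki67, chr7:135716330-135716629, minus strand: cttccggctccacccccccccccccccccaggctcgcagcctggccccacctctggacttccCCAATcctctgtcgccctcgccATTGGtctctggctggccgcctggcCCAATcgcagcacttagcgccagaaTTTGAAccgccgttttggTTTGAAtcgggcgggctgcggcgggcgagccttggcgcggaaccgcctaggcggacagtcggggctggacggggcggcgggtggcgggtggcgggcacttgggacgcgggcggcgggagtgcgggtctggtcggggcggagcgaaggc
Kif23, chr9:61946750-61947049, minus strand: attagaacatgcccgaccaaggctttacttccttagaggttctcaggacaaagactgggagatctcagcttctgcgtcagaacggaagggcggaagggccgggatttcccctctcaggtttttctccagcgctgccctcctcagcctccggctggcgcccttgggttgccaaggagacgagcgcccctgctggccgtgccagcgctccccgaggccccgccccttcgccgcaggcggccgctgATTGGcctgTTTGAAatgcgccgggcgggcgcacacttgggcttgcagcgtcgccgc
Kif11, chr19:37376132-37376431, plus strand: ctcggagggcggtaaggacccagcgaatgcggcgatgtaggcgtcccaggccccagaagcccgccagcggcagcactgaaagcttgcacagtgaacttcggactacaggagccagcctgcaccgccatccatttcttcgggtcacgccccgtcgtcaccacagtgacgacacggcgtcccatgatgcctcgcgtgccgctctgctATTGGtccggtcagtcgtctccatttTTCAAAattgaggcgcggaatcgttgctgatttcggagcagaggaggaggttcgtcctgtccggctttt
A CHR element was found in 17 and a CCAAT box in 19 of the 22 genes of the list with a window (26 tested), and both in all 6 held genes with a window; of all tested genes with a window 14.9% had CHR and 42.3% a CCAAT box, and of all windows 17.9% and 37.4%. Of the other motifs searched, these were in only some of the held genes. The E2F site core (GCGGGAA or TTCCCGC) was in 3 of 5 held replication genes with a window and in 9.14% of tested genes, and the E box (CACGTG) in 3 of 5 held clock genes and 11.1%. The nuclear receptor motif AGGTCA or TGACCT was in 3 of 8 held PPAR-alpha genes and 15.2%. A match only says that the letters are there.

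Of 26 mitosis genes 12 fell and 7 held (median -0.59); the count was 7 without CONV 2. Mki67 (ENSMUSG00000031004), the marker of cycling cells, ranged from 26.6 to 156 CPM (median 107) in the control libraries and stood at 10.4, 29.7, 21.1, 12.1 and 15.3 CPM in the CONV libraries. The lowest control was control 6, which lay below CONV 3, and the change was -2.42 ± 0.44. Kif11, the motor that separates spindle poles, ranged from 26.5 to 44.3 CPM (median 36.5) in the control libraries and stood at 14.1, 21.6, 18.3, 20.4 and 20.7 CPM in the CONV libraries with no overlap and changed by -0.94 ± 0.18. Kif23, a motor of cytokinesis, changed by -1.27 ± 0.23, Cenpf, of the kinetochore, by -1.82 ± 0.38, Top2a, which untangles chromosomes, by -1.14 ± 0.25 and Ccna2, cyclin A, by -0.67 ± 0.16. The kinase that drives entry into mitosis did not pass: Cdk1 was at -0.02 ± 0.22 and its cyclin Ccnb1 at 0.00 ± 0.18, with 20.3 to 29.7 CPM (median 23.7) in control and 21.2, 23.6, 23.8, 28.2 and 27.0 CPM in CONV libraries. Psrc1, a spindle protein that is also a p53 target, changed by 2.66 ± 0.15 (adjusted p 1.78e-09). Ccne2, cyclin E2 of the G1 to S step, changed by 1.5 ± 0.26 while the repressor E2f8 changed by -1.70 ± 0.30.

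Of 28 DNA replication genes 11 fell and 6 held; the count was 6 without CONV 2 or CONV 6, 7 without control 1, control 2 or control 5. Lig1, which joins lagging-strand fragments, ranged from 17.7 to 43.1 CPM (median 35.8) in the control libraries and stood at 8.59, 15.4, 13, 7.22 and 16.3 CPM in the CONV libraries, a change of -1.49 ± 0.24; Mcm6, a helicase subunit, changed by -0.83 ± 0.18 and Pole, the leading-strand polymerase, by -1.70 ± 0.42, while Pcna, the polymerase clamp, did not pass (0.25 ± 0.19). Repair genes that passed were mostly lower. Of 19 homologous recombination and Fanconi anaemia genes 5 fell and 2 held, of 20 end joining and damage sensing genes 4 fell and 1 held, and of 20 excision and mismatch repair genes 4 fell and 2 rose, 2 and 1 of which held. The number of recombination genes that fell was 3 without CONV 2 or CONV 6, 8 without control 6, and of excision genes 2 without CONV 6. The number of end joining genes that fell was 1 without CONV 2 or CONV 6, 2 without control 2, 7 without CONV 3, 11 without control 6. Polk (ENSMUSG00000021668), a polymerase that copies past damaged bases, ranged from 3.03 to 5.69 CPM (median 4.39) in the control libraries and stood at 13.4, 15.8, 17.1, 14.1 and 15.1 CPM in the CONV libraries; groups did not overlap and the change was 1.74 ± 0.21. The glycosylases Neil3 (-1.55 ± 0.28) and Ung (-1.35 ± 0.25), which cut out damaged bases in replicating cells, fell, as did Brca2 (-1.39 ± 0.31) and the helicase Blm (-1.07 ± 0.29) of homologous recombination. Ddias, a gene of damage-induced survival, stood at 27.2, 24.4, 24.4, 41.1 and 30.6 CPM in the CONV libraries, against 2.72 to 4.96 CPM (median 3.8) in the control libraries, a change of 2.92 ± 0.19. Of 22 apoptosis genes 2 held as higher and 1 as lower. Bbc3, the p53-induced killer protein PUMA, ranged from 2.81 to 4.49 CPM (median 3.72) in the control libraries and stood at 12.6, 16.4, 15.1, 16.4 and 16.3 CPM in the CONV libraries, a change of 2.09 ± 0.18, and Bcl2, the survival protein it opposes, changed by -1.41 ± 0.22.

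Crypt base genes fell: 11 of 18, 7 of which held (median -1.02); the count was 7 without CONV 6. Lgr5, the stem cell receptor for R-spondin, ranged from 3.5 to 16.7 CPM (median 11.3) in the control libraries and stood at 1.83, 4.25, 3.39, 1.31 and 3.58 CPM in the CONV libraries, with control 6 the only control inside the CONV range, and changed by -1.86 ± 0.41. Myb, a factor of crypt progenitors, changed by -1.66 ± 0.25, Prom1 by -1.03 ± 0.15 and Znrf3, which removes Wnt receptors, by -1.32 ± 0.33. Genes of regenerating, fetal-like epithelium rose in 7 of 15, 5 of which held, and 1 fell without holding. Of the 15 changes 7 were negative. The median was 0.49 and lay between 0.14 and 0.82 with any 1 library left out. Anxa8, an annexin of this state, stood at 4.03, 3.14, 2.9, 2.44 and 2.23 CPM in the CONV libraries, against 0.11 to 0.438 CPM (median 0.184) in the control libraries, a change of 3.65 ± 0.44; S100a6 changed by 1.81 ± 0.27, Ly6a (Sca-1) by 1.30 ± 0.34 and Anxa3 by 1.01 ± 0.21. Clu, which marks revival stem cells, did not pass (-0.09 ± 0.71): 1 control library, control 2, was at 283 CPM, the other 5 were at or below 70.7 CPM, and the CONV libraries stood at 61.6, 119, 56.7, 65.1 and 19.6 CPM. Without control 2 its log2 fold change was 1.32. Krt15, a keratin of long-lived crypt cells, stood at 2.98, 2.51, 2.83, 3.79 and 3.48 CPM in the CONV libraries, against 0.208 to 0.559 CPM (median 0.377) in the control libraries, a change of 3.02 ± 0.32.

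Few genes of the secretory lineages held. Of 18 goblet genes 1 held as higher and 1 as lower, and of 18 Paneth genes 1 as higher and 2 as lower. Of 20 enteroendocrine genes 1 held as lower and of 17 tuft genes 1 as higher. These counts were near the shares of all genes that held. Of the Paneth genes 2 rose and 3 fell, and 15 had a negative change (median -0.53). Of 23 alpha-defensin genes 6 fell and 2 held, and 20 had a negative change (median -0.61). The number that fell was 2 without CONV 6. Of the goblet genes 4 rose and 2 fell, and 1 rose without CONV 2 or CONV 6. Neurog3, the switch to the endocrine fate in crypts, changed by -1.79 ± 0.46 at low levels (0.471, 0.314, 0.112, 0.226 and 0.106 CPM in CONV). Atoh1, the switch to all secretory fates, did not pass (0.04 ± 0.21), nor did lysozyme Lyz1 of Paneth cells (-0.31 ± 0.24). Muc2, the main gel mucin, passed at -1.21 ± 0.38 but did not hold. Defa26, a Paneth defensin from a family of near copies, held at -1.12 ± 0.26, and Ltc4s, the leukotriene C4 synthase of tuft and mast cells, at 1.81 ± 0.40. Of 18 Notch genes 5 fell, 4 of which held, and 1 rose and held. Among those that fell were the receptors Notch1 (-1.62 ± 0.44) and Notch2 (-1.78 ± 0.47) and their nuclear partner Rbpj (-0.83 ± 0.19). The target Hes1 did not pass (-0.11 ± 0.13). Control 6 was the lowest control for Notch1, Notch2 and Rbpj, and groups overlapped. Of 17 genes of the EGF receptor family and its ligands 5 rose and 2 fell, 2 and 1 of which held, and the number that rose was 2 without CONV 6, control 1, control 2 or control 4, 3 without CONV 2, CONV 7, control 3 or control 5. Of 21 insulin, IGF and FOXO genes 2 rose and 6 fell, 2 and 1 of which held, and the number that fell was 1 without CONV 2, CONV 6 or control 2, 2 without CONV 7, control 1, control 4 or control 5. Egf (-1.32 ± 0.36), against the majority of its list, and the receptor Igf1r (-2.35 ± 0.56) held as lower with overlapping groups and control 6 the lowest control. H19, an imprinted long non-coding RNA, stood at 0.838, 1.19, 2.79, 0.271 and 0.603 CPM in the CONV libraries, against 0.0745 to 0.219 CPM (median 0.185) in the control libraries and changed by 2.79 ± 0.66.

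**Figure D4:**
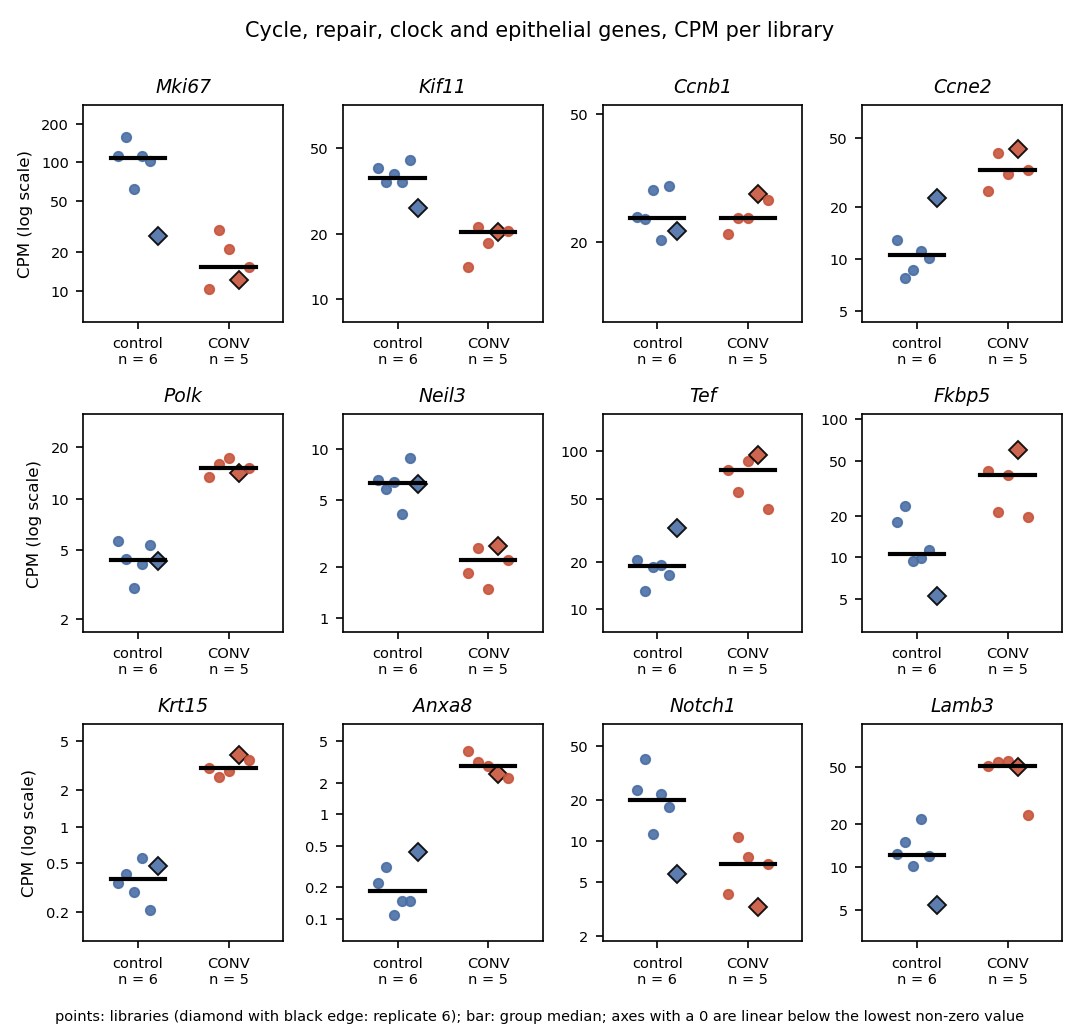
CPM (y axis, log scale) of 12 cell cycle, repair, clock and epithelial genes in 6 control (blue) and 5 CONV (red) libraries, with the group median as a bar and replicate 6 as a diamond. Ccnb1 overlaps fully, Mki67, Fkbp5 and Notch1 overlap in part, and the other 8 genes are apart.

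Collagen, basement membrane and smooth muscle genes were lower in part. Most of these calls were lost when any 1 of several libraries was left out, while more were made without control 6. Of 34 collagen genes 21 fell and 7 held (median -1.59); the count was 8 without CONV 2, CONV 6 or control 2, 10 without CONV 7, 12 without control 4, 13 without control 1. Col14a1, a collagen that binds fibrils, ranged from 8.58 to 38.0 CPM (median 23.2) in the control libraries and stood at 1.73, 4.78, 5.03, 1.44 and 4.93 CPM in the CONV libraries with no overlap and changed by -2.66 ± 0.42; Col12a1 changed by -2.30 ± 0.44 and Col3a1 by -1.75 ± 0.41, while Col1a1 passed at -2.10 ± 0.69 without holding. Of 23 basement membrane genes 12 fell and 2 held, Itga2 (-1.74 ± 0.30) and Lama3 (-1.78 ± 0.44); the count was 2 without CONV 2, CONV 6 or control 2, 4 without CONV 7, control 1 or control 4, 7 without control 5. Lamb3, the chain that pairs with Lama3 in epithelial laminin, rose instead: it ranged from 5.47 to 21.5 CPM (median 12.1) in the control libraries and stood at 50.8, 53.4, 54.8, 49.5 and 23.1 CPM in the CONV libraries, a change of 1.86 ± 0.31. Of 23 remodelling genes 3 rose and 4 fell, not far from the shares of all genes that passed. Of these, 3 and 2 held, against 4.81% and 5.50% of all genes. The number that fell was 2 without CONV 2 and 9 without control 6. Mmp3 (1.81 ± 0.43) and the inhibitor Timp1 (1.33 ± 0.34) rose and fibronectin Fn1 fell (-2.0 ± 0.51). Of 18 smooth muscle markers 9 fell and 2 held, Acta2 (-1.43 ± 0.40) and Actc1 (-2.66 ± 0.70); the count was 3 without CONV 2, CONV 6 or control 1, 5 without CONV 7. Myh11 passed at -2.01 ± 0.67 without holding, with 7.45 CPM in CONV 6. Of 24 blood endothelial markers 4 fell, near the share of all genes, though 23 had a negative change and the median was -0.84. Aplnr, the apelin receptor of sprouting vessels, alone held (-2.55 ± 0.57). The number that fell was 1 without CONV 2, CONV 6, CONV 7 or control 2 and 2 without control 1 or control 4. It was 11 without control 6, where 20.7% of all genes fell. Pecam1 did not pass (-0.82 ± 0.39), but was lower without control 6 (adjusted p 0.0409). Of 13 lymphatic endothelial markers 1 rose and 2 fell, and 1 held in each direction. Clca3a1 ranged from 4.85 to 14.6 CPM (median 10.1) in the control libraries and stood at 110.0, 79.2, 108, 110.4 and 29.8 CPM in the CONV libraries, a change of 3.19 ± 0.42 with no overlap, and Reln, a secreted protein of lymphatic vessels, changed by -2.02 ± 0.52. Signals that mesenchyme sends to crypts fell in 5 of 20 genes, and Wnt2b (-1.55 ± 0.41) held; the count was 2 without CONV 2 or CONV 6, 3 without CONV 5, CONV 7, control 1, control 2, control 4 or control 5. Tgfb1, the wound-healing cytokine, held at -0.92 ± 0.24. Levels fell with transcript length most in control 6 and CONV 6, as given above. They also fell in CONV 2 (slope -0.166) and CONV 7 (-0.114), but not in CONV 3 (0.017) or CONV 5 (0.028). Slopes were 0.114 to 0.156 in controls 1, 2, 4 and 5 and -0.018 in control 3. With the length and GC offset 19 of 34 collagen, 11 of 23 basement membrane and 10 of 18 smooth muscle genes were lower. Without control 6 the counts were 27, 17 and 13, where 20.7% of all genes fell. Without both replicates 6 they were 24, 15 and 10, where 14.2% of all genes fell.

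**Figure D5:**
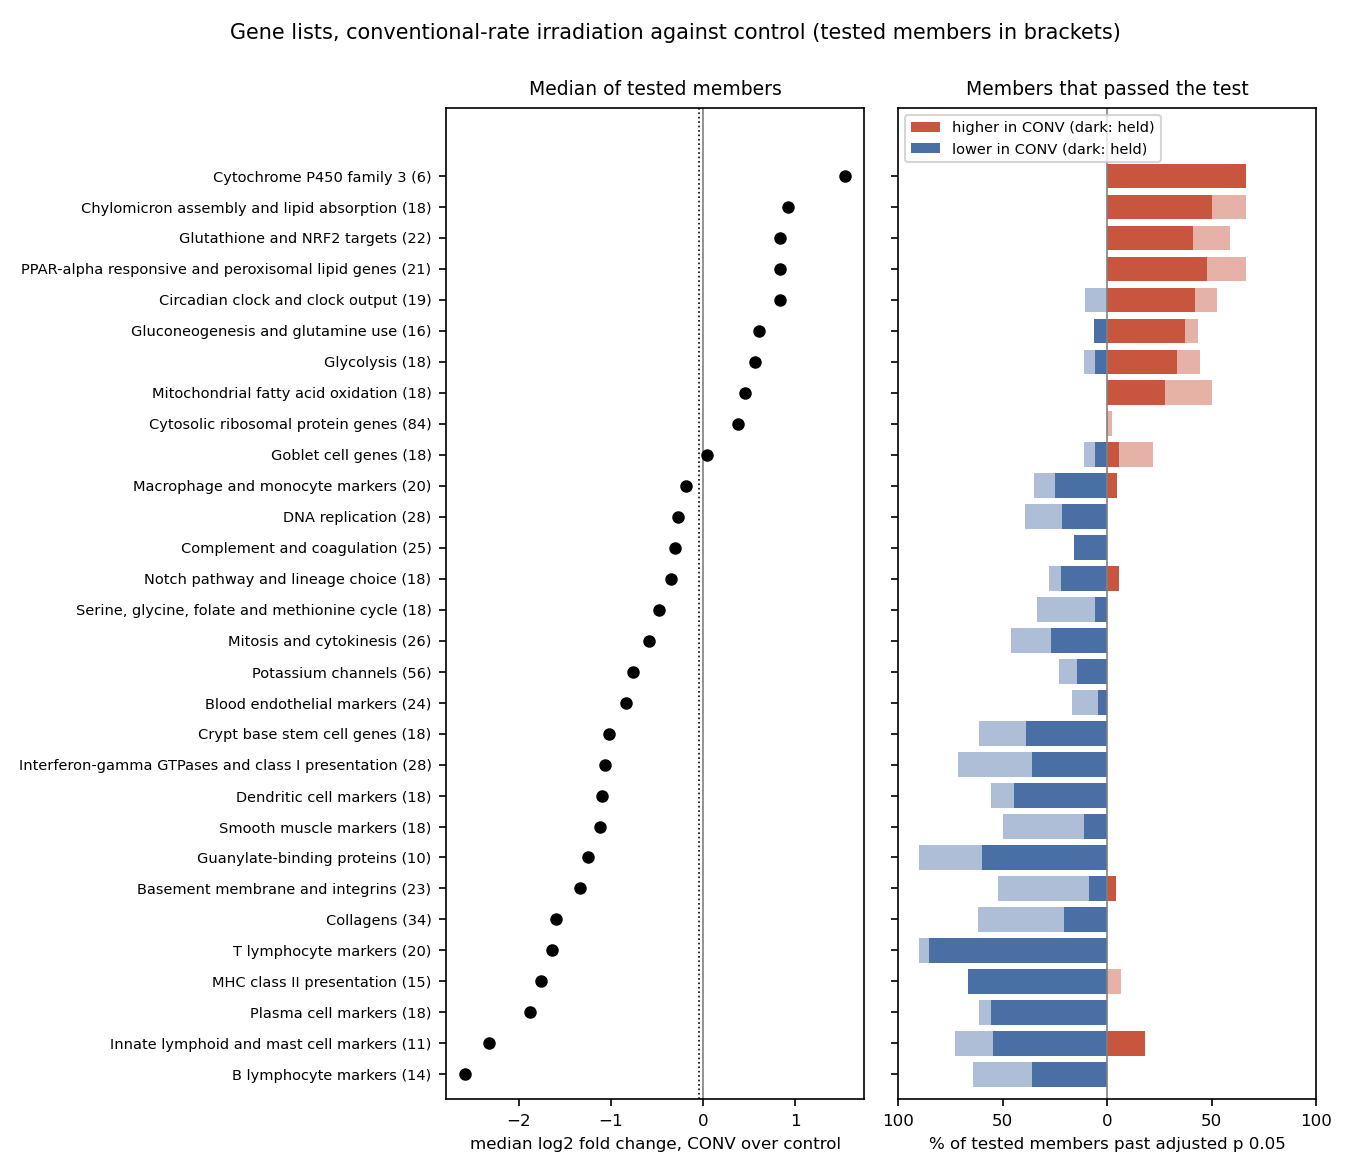
Left, median log2 fold change (x axis) of the tested members of 30 gene lists (number tested in brackets; dotted line, median of all tested genes, -0.045). Right, percent of tested members past an adjusted p of 0.05, higher (red) or lower (blue) in CONV, with the part that held in every left-out fit in the dark shade; the dark part is 17 of 20 for T lymphocyte markers and 2 of 18 for smooth muscle markers.

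Ribosomal protein calls depended on single libraries. Of 84 cytosolic ribosomal protein genes 82 had a positive change (median 0.38) but 2 passed; the count was at most 1 without any of CONV 2, CONV 6, CONV 7 and controls 1 to 5, 37 without control 6, and 6 without both control 6 and CONV 6. Control 6 summed to 47430 CPM for this family against 19690 to 27270 CPM in the other controls, and CONV 6 to 49010 CPM against 24660 to 40530 CPM in the other CONV libraries. Of 80 mitochondrial ribosomal protein genes 13 rose and 3 held, Mrps6 (1.52 ± 0.26) the first of them; the count was 3 without CONV 2, CONV 6, control 1, control 2, control 4 or control 5, 4 without CONV 7, 49 without control 6. The 2 ribosomal RNAs of the mitochondrial genome, mt-Rnr1 and mt-Rnr2, held as higher: mt-Rnr1 ranged from 391 to 735 CPM (median 420.0) in the control libraries and stood at 1773, 966, 1101, 1451 and 795 CPM in the CONV libraries, a change of 1.27 ± 0.29, and mt-Rnr2 changed by 1.23 ± 0.25. None of the other 13 of the 15 mitochondrially encoded genes passed; the median of the list was -0.31, and 4 fell without control 6 and 3 without both control 6 and CONV 6.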

How the data were processed

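RNA from whole jejunum was made into stranded mRNA libraries and sequenced as single-end 100 bp reads on an Illumina NovaSeq, per the labels' protocols. Per the submitters' processing notes the authors used STAR and Salmon with the mouse build mm10, and edgeR 3.40.2 and limma 3.54.2; the role and settings of each are not given in the sources used here. The deposited table of estimated counts holds 54532 genes, and the deposited table of log2 expression values holds 19193 genes; the second was used only as an alternative. Estimated counts were rounded. Gene symbols came from the reference annotation (54409 matched; the 123 without a symbol held 0.028% of counts).

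Computed here with R 4.3.3: 16257 genes passed edgeR's filterByExpr, TMM scaling was applied, and 1 quasi-likelihood model (edgeR 4.0.16, robust) was fitted to all 18 libraries, which share the estimate of spread. CONV was contrasted with control and p-values were adjusted by Benjamini-Hochberg over all 16257 genes, with a threshold of 0.05. A standard error is the log2 fold change divided by the square root of F. CPM use TMM-adjusted library sizes. Intervals of count ratios cover counting error only. In simulated data with 15983 genes the fit recovered 39% of 2-fold and 86% of 4-fold changes, and 6.11% of its 131 calls were false. Far fewer genes were changed there than were called here, and no simulated library stood apart as control 6 did. These shares therefore need not hold for the real data.

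The 87 gene lists and 38 gene families, the groups compared and the rule for named genes were chosen with earlier results of these data known. Named were the 20 genes with the smallest p in each direction that held, did not overlap and had a mean of at least 5 CPM, up to 6 held members of each list by p, up to 3 held members against a list's majority, and fixed anchor genes of each list; a few genes this rule names are not reported here. Lists are described by counts and medians. Alternatives were 22 settings: other scaling, filters, tools (DESeq2 1.42.0, limma 3.58.1), only the 2 groups, a replicate block, a length and GC offset, and left-out libraries. Promoter windows came from RefSeq on GRCm38.p6.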

Additional observations from a re-analysis of the deposited data

Results flagged for a closer look

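Each library's log2 CPM (with a prior count of 2) was compared with the rest of its group by Dixon's ratio and its 95% critical value. The ratio is the gap to the nearest library divided by the group's range, both on the log2 scale. Of 460 groups of named genes 37 were past the limit, where chance gives about 1 in 20. Control 6 was the low library in 17 of these: Dock11 (0.674), Hk2 (0.834), Slc7a1 (0.726), Atic (0.648), Vars (0.684), Lars (0.655), Kcnn4 (0.694), Egr1 (0.629), Kif23 (0.721), E2f8 (0.694), Lig1 (0.682), Mcm6 (0.63), Brca2 (0.644), Atoh1 (0.737), Rbpj (0.67), Egf (0.825) and Muc4 (0.701). In Hk2 it was at 4.42 CPM and the next control at 21.3 CPM, and in Egf at 0.255 and 1.41 CPM. Control 6 was the high library for Dnajb9 (0.64), S100a6 (0.666) and Mrps6 (0.648). Control 2 was the high library for Il2rg (0.663), Cd79a (0.894) and Siglech (0.645); Cd79a, a B cell gene, was at 65.1 CPM there and at 19.2 CPM in the next control. CONV 7 stood apart for Xcr1 (0.766), Pck1 (0.724), Cry1 (0.791), Lamb3 (0.882), Mx2 (0.726) and Clca3a1 (0.746); it was high for Xcr1, Cry1 and Mx2 and low for Pck1, Lamb3 and Clca3a1. CONV 6 stood apart for Slc7a5 (0.745), Txnrd1 (0.747) and Acta2 (0.797); it was low for Slc7a5 and Acta2, where it was at 40.3 CPM against 156 CPM in the next library, and high for Txnrd1. The other libraries were CONV 2 high for Mcpt1 (1), CONV 2 low for Il2ra (0.748), control 3 high for Ly6g (1), CONV 3 low for Cyp2c29 (0.711), CONV 5 low for Hes1 (0.712). For Mcpt1 and Ly6g the ratio is 1 because all other libraries of the group were at 0 CPM.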

How the results depend on the processing

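The number of genes past the threshold was 3615 and ranged from 1869 (without CONV 6) to 6493 (without control 6) when 1 library was left out. Under the other settings it was 4669 with DESeq2, 3624 with DESeq2's size factors in edgeR, 2445 with all genes of at least 1 count, 3480 with a mean of at least 1 CPM, 3609 with limma-voom, 2949 with limma-trend on the deposited log2 values, 3097 with only the 2 groups and 3932 with the length and GC offset, within 1.5 times of the main count. Scaling to library totals gave 3755 calls, of which 24.2% were higher against 46.0% in the main fit, and moved the all-gene median from -0.045 to -0.254 on the log2 scale. The shared replicate numbers 2, 3, 5 and 6 carry no pairing in the labels: deviations of same-numbered libraries correlated by -0.054, -0.27, 0.251 and 0.606, and only number 6 correlated best with its own. With the replicate block 2525 genes passed, 2406 of them shared with the main calls in the same direction. Of the 214 named genes that passed, 4634 of 4684 values under the 22 settings stayed past the threshold in the same direction. Another 50 lost the threshold, 9 of them under the replicate block, and the sign did not reverse in any. Most of this was fixed by the choice of genes, since 208 of the 214 held. Holding requires passing in the left-out fits and the offset fit. Of all main calls, 50.8% were kept without CONV 6, 59.1% without CONV 2 and 66.6% with the replicate block. Of 16 named genes that did not pass, 11 of 352 values passed. At this depth and group size the simulated fit recovered 39% of 2-fold changes, so smaller changes can be missed. The simulation gave 131 calls against 3615 here and had no library like control 6, so the share recovered in the real data is not known.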
